A study of Zea mays with 12 samples.

Results

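In the maize synergid cell, 6 transcription factor genes were followed, 1 related to the Arabidopsis MYB factor MYB98 and 5 related to rice homeobox-leucine zipper proteins, and they are 6 of 45246 genes and loci in the deposited tables. They were chosen by gene identifier, and they were chosen on their high level in unfertilized synergid cells and their decline in these same libraries, so their stage values are a description and carry no p. The libraries came from the inbred line B73 and covered synergid cells before pollination (SC, 0 h after pollination, HAP) and persistent synergid cells at 12 HAP (pSC12), 18 HAP (pSC18) and 24 HAP (pSC24), with 3 libraries of each stage. Each library was made from 25 to 28 cells isolated by hand, and the cDNA was amplified before sequencing. The labels call the libraries of a stage biological replicates and do not say which plants they came from, so an SD given here measures the spread between libraries. An SE comes from the edgeR fit, which pools that spread over the stages. Because each library is a small pool, fewer cells holding an mRNA and less mRNA in each cell cannot be told apart.

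Synergids are the cells beside the egg cell in the embryo sac that attract the pollen tube and receive its contents, and the one that the pollen tube does not enter persists for a time after fertilization. In Arabidopsis, MYB98 is an R2R3-MYB transcription factor of the synergids that is needed to form the filiform apparatus, a folded cell wall at the synergid tip, and to attract pollen tubes, and it activates genes for small secreted cysteine-rich peptides. Homeobox-leucine zipper (HD-ZIP) proteins are plant transcription factors that bind DNA through a homeodomain and pair with each other through the leucine zipper next to it. The function of the 5 maize homeobox genes in synergids is not given in the sources used here, and they are known below by their domain and by the rice protein in the deposited annotation.

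Total counts lay between 18369408 and 20046467 in SC, between 25959879 and 26539602 in pSC12, between 15435736 and 20834163 in pSC18 and between 20319633 and 25897204 in pSC24. The synergid peptide gene ZmES4 had between 6018 and 13051 FPKM in the 12 libraries, whereas EA1, a gene of the egg apparatus, was at or below 0.338 FPKM in every SC and pSC12 library and reached 26.3 FPKM in pSC18 replicate 3. Summed over 2 genes, egg cell EC1-like mRNA lay between 42.8 and 119 FPKM in pSC24 and between 172 and 428 FPKM in SC. Genes described as members of the MEG, BETL and ESR endosperm families, of which 2 of 12 were detected, summed to between 1080 and 1671 FPKM in pSC24. They summed to between 1190 and 2074 FPKM in SC, before pollination, so they cannot serve as endosperm markers here. Zein storage protein mRNA, from 1 detected gene of 26, was at 61.1, 75.3 and 149.5 FPKM in pSC24 and at 0 in SC, and ribosomal protein genes summed to between 11571 and 11972 FPKM in pSC24 and between 10195 and 11438 FPKM in SC. The part of these other RNAs in the results was not tested.

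All positions are on the B73 AGPv5 genome. ZmMYB98 (Zm00001eb212880, chromosome 5, 4444783 to 4445878, plus strand) lies apart from the homeobox genes. ZmHB81 (Zm00001eb273120, chromosome 6, 97454896 to 97456351, plus strand) was annotated as HOX18-like and ZmHB24 (Zm00001eb208000, chromosome 4, 246109392 to 246110982, minus strand) as HOX26-like. The other 3 are HOX18-like neighbours on chromosome 5, namely ZmHB42 (Zm00001eb226570, 56596085 to 56597688, plus strand), ZmHB44 (Zm00001eb226580, 56671300 to 56672232, plus strand) and Zm00001eb226590 (56673659 to 56674705, minus strand), which has no gene name in the table. These 3 genes span 78.6 kb, with 73.6 kb between ZmHB42 and ZmHB44 and 1426 bases between ZmHB44 and Zm00001eb226590, whose 3′ ends face each other. No other gene or locus of the table lay within that span. Gene lengths behind the FPKM values were 1096 bases for ZmMYB98, 1161 for ZmHB81, 1495 for ZmHB24, 1258 for ZmHB42, 651 for ZmHB44 and 726 for Zm00001eb226590. Those of ZmHB81, ZmHB44 and Zm00001eb226590 are multiples of 3, and the RefSeq models of all but ZmHB24 span more bases, among them ZmMYB98 (4440685 to 4445835), ZmHB81 (97454895 to 97456547), ZmHB44 (56671090 to 56672456) and Zm00001eb226590 (56673659 to 56674913), so FPKM levels set between genes are less certain than changes within a gene. How reads that match more than 1 place were counted is not given in the sources used here, and any sharing of reads among the 4 HOX18-like genes was not tested.

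ZmMYB98 was the transcription factor gene with the highest FPKM in SC, and by pSC24 8.74% of that level was left on average. It had 1048, 1205 and 1106 FPKM in the 3 SC libraries, 648, 585 and 572 FPKM in pSC12, 475, 459 and 356 FPKM in pSC18, and 59.7, 55.2 and 179 FPKM in pSC24. No library of a stage overlapped with a library of the stage before, and pSC24 replicate 3 stood apart from the other two pSC24 libraries. The pSC24 values rest on 1450, 1668 and 4765 counts. The mean was 97.9 ± 70.0 FPKM in pSC24 and 1119.6 ± 79.0 FPKM in SC (SD, n = 3 each), and the edgeR log2 fold change was -3.53 (SE 0.37).

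ZmHB81, the HOX18-like gene on chromosome 6, had overlapping levels in pSC12 and pSC18 and was lower in pSC24. It had 664, 752 and 697 FPKM in SC, 533, 516 and 516 FPKM in pSC12, 493, 530 and 485 FPKM in pSC18, and 155, 203 and 255 FPKM in pSC24. The pSC12 and pSC18 libraries overlapped, whereas every pSC24 library lay below every earlier library. The mean was 204 ± 50.1 FPKM in pSC24 and 704 ± 44.5 FPKM in SC (SD, n = 3 each), with an edgeR log2 fold change of -1.80 (SE 0.15).

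ZmHB24, the HOX26-like gene on chromosome 4, had 633, 684 and 679 FPKM in SC, 486, 497 and 427 FPKM in pSC12, 401, 514 and 399 FPKM in pSC18, and 271, 250 and 266 FPKM in pSC24. Its pSC12 and pSC18 libraries overlapped and its 3 pSC24 libraries lay close together below them. The pSC24 mean of 263 ± 11.02 FPKM stood against 665 ± 28.3 FPKM in SC (SD, n = 3 each), with a log2 fold change of -1.35 (SE 0.11).

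In the chromosome 5 group, ZmHB42 changed least. It had 411, 484 and 453 FPKM in SC, 332, 350 and 332 FPKM in pSC12, 272, 355 and 272 FPKM in pSC18, and 228, 253 and 226 FPKM in pSC24. The pSC24 libraries were again below all others, at 236 ± 15.1 FPKM against 449 ± 36.5 FPKM in SC (SD, n = 3 each), and the log2 fold change was -0.94 (SE 0.12).

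ZmHB44 overlapped with ZmHB42 in SC and was below it in every pSC24 library. It had 374, 514 and 451 FPKM in SC, 128, 148 and 186 FPKM in pSC12, 113, 89.7 and 89.5 FPKM in pSC18, and 5.89, 12.4 and 82.7 FPKM in pSC24. As for ZmMYB98, no 2 neighbouring stages overlapped and pSC24 replicate 3 stood apart. The counts in pSC24 were 85, 223 and 1311, against 4138, 5416 and 5261 in SC, so the pSC24 mean of 33.7 ± 42.6 FPKM (SD, n = 3) has an error larger than itself. The log2 fold change was -3.75 (SE 0.70), the largest of the 6 genes and the one with the largest SE.

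Zm00001eb226590, beyond the 3′ end of ZmHB44, had the lowest level of the 6 in SC. It had 120, 151 and 162 FPKM in SC, 129, 107 and 191 FPKM in pSC12, 94.3, 124 and 67.9 FPKM in pSC18, and 51.2, 59.4 and 48.5 FPKM in pSC24. Libraries of SC, pSC12 and pSC18 overlapped, whereas pSC24 stood below all of them. The mean was 53.0 ± 5.67 FPKM in pSC24 and 144 ± 22.1 FPKM in SC (SD, n = 3 each), and the log2 fold change was -1.46 (SE 0.24).

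**Figure D1:**
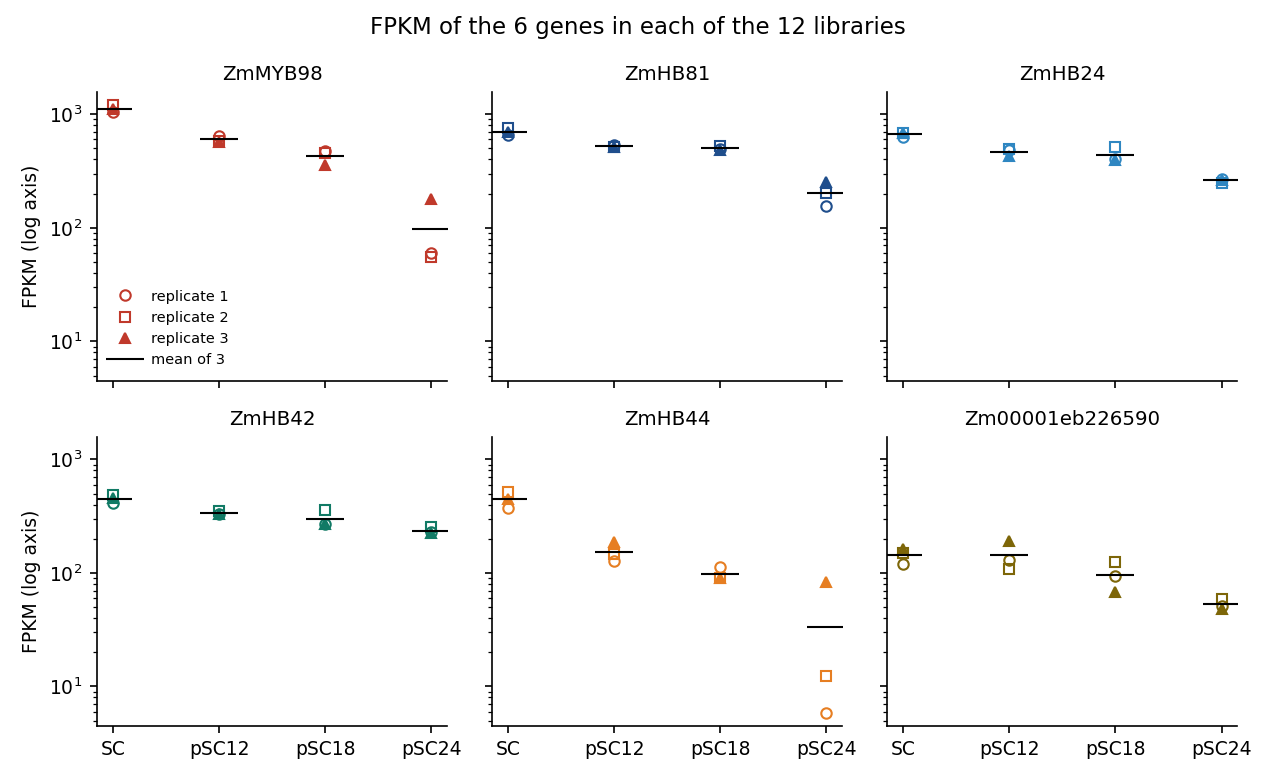
FPKM of each of the 6 genes in the 12 libraries, with stage on the x axis, FPKM on a log y axis, a point for each library marked by replicate number and a bar for the mean of each stage (n = 3). In all 6 panels the pSC24 points lie below every earlier point, and pSC24 replicate 3 is far above the other two for ZmMYB98 (179 FPKM) and ZmHB44 (82.7 FPKM).

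The order of the genes by FPKM, a level per gene length, changed over the stages. In SC, ZmMYB98 was above the rest, ZmHB81 and ZmHB24 overlapped (664 to 752 and 633 to 684 FPKM), ZmHB42 and ZmHB44 overlapped below them (411 to 484 and 374 to 514 FPKM), and Zm00001eb226590 was lowest. In pSC24, ZmHB24 and ZmHB42 led and overlapped (250 to 271 and 226 to 253 FPKM), ZmHB81 ranged across both (155 to 255 FPKM), and ZmMYB98, Zm00001eb226590 and ZmHB44 overlapped with each other at the bottom, the highest ZmMYB98 library reaching into the range of ZmHB81. Among the 1716 genes with a transcription factor domain label, ZmMYB98 ranked 1, 1, 3 and 5 at SC, pSC12, pSC18 and pSC24, and ZmHB44 ranked 5, 6, 7 and 32. Homeobox genes without such a label are left out of the 1716, among them a ROC3-like gene (Zm00001eb024680). Its pSC18 mean of 119 FPKM was above that of ZmHB44 (97.3 FPKM). Over the same stages ZmHB24 ranked 3, 3, 2 and 1 among the 1716. The HOX26-like gene was thus the highest of them in pSC24 although its own level was lower than in SC. Among all 45246 genes and loci, ZmMYB98 ranked 587 in pSC24 and 58 in SC, and ZmHB44 ranked 2403 in pSC24 and 125 in SC.

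The pace of decline differed among the genes in these means. ZmMYB98 kept 53.7% ± 3.64 of its SC mean at pSC12, 38.4% ± 5.76 at pSC18 and 8.74% ± 6.25 at pSC24 (SD, n = 3). The SD of a share kept takes the SC mean as fixed and leaves out the spread of SC. ZmHB44 had the lowest share in pSC12, with 34.5% ± 6.6, 21.8% ± 3.0 and 7.55% ± 9.54 of its SC mean kept at the same stages. Without pSC24 replicate 3 the last shares were 5.13% for ZmMYB98 and 2.05% for ZmHB44. Both had lost most of their SC level by pSC18, before the other 4 genes had.

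ZmHB81 kept 74.1% ± 1.4 of its SC mean at pSC12, 71.4% ± 3.41 at pSC18 and 29.0% ± 7.11 in pSC24. ZmHB24 kept 70.7% ± 5.64, 65.9% ± 9.90 and 39.5% ± 1.66, and ZmHB42 kept 75.2% ± 2.34, 66.7% ± 10.7 and 52.5% ± 3.37. Zm00001eb226590 kept 98.9% ± 30.1 in pSC12, an SD that spans both a rise and a fall, then 66.0% ± 19.4 and 36.7% ± 3.93. Under counts scaled by the plain library total (CPM), which shift the median gene of pSC12 by 0.27 on the log2 scale, the pSC12 shares were 66.0% for ZmMYB98, 91.0% for ZmHB81, 86.8% for ZmHB24, 92.4% for ZmHB42, 42.5% for ZmHB44 and 121.8% for Zm00001eb226590. The direction of Zm00001eb226590 in pSC12 therefore turned with the scaling, and ZmMYB98 and ZmHB44 stayed the lowest of the 6.

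**Figure D2:**
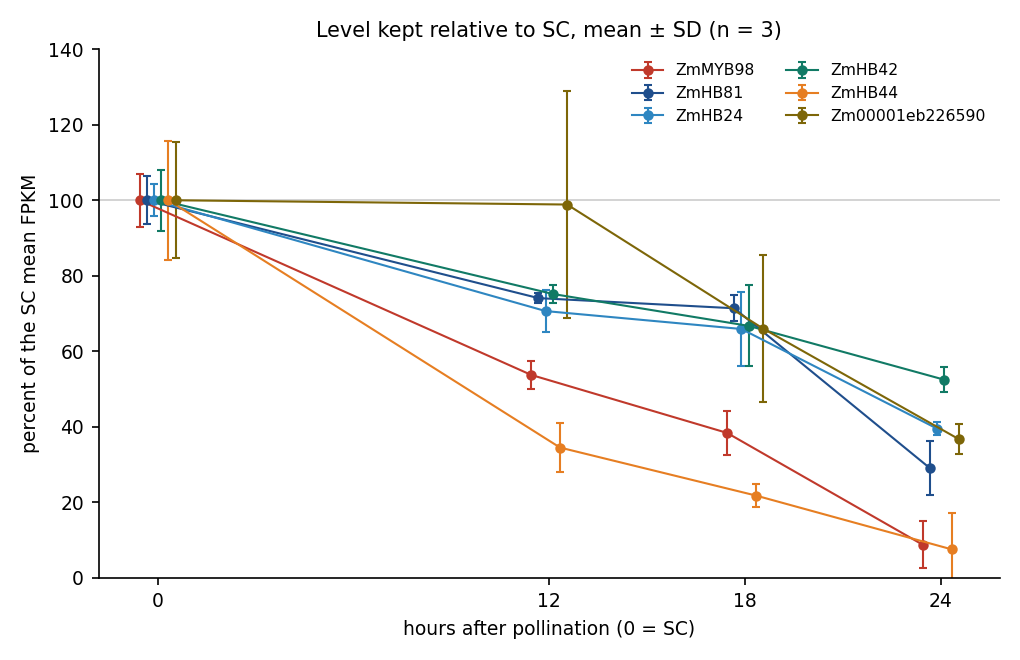
Percent of the SC mean FPKM kept by each gene (y axis) at 0, 12, 18 and 24 HAP (x axis), with points for the mean of 3 libraries and bars for the SD, set side by side around each time and ended at 0. ZmHB44 and ZmMYB98 lie lowest at every stage after SC and end at 7.55% and 8.74%, and ZmHB42 ends highest at 52.5%.

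Measured per hour, the steps were 12 h, 6 h and 6 h long. The first and middle steps run wholly between libraries whose mapped shares of reads differ. The last step does so in part, through pSC24 replicates 2 and 3. ZmMYB98 changed by -0.075, -0.081 and -0.36 log2 units per hour over the 3 steps, and the last held 60.7% of its whole log2 fall. For ZmHB81 the paces were -0.036, -0.0089 and -0.22 per hour, with 72.8% of the fall in the last step, and for ZmHB24 they were -0.042, -0.017 and -0.12 per hour, with 55.1%. ZmHB42 changed by -0.034, -0.029 and -0.058 per hour, and 37.3% of its fall came last. ZmHB44 changed by -0.13, -0.11 and -0.26 per hour and had 41.1% of its fall in the last step. Without pSC24 replicate 3 its last pace was -0.57 per hour, against -0.48 for ZmMYB98, and the share was 60.8%. Zm00001eb226590 changed by -0.0014, -0.097 and -0.14 per hour, with 58.6% last. The first step includes the hours from pollination to fertilization, so its pace depends on counting from pollination. Paces counted from fertilization, which shorten the first step, were not computed. The whole log2 change of the first step was larger than that of the last for ZmHB44 (-1.54 and -1.53) and ZmHB42 (-0.41 and -0.35). The fastest step can therefore differ when the first step is counted from fertilization. Counted from pollination, the last 6 h had the fastest pace over these means in all 6 genes. Without pSC18 replicate 2, the step before it was faster for ZmHB42 (-0.052 and then -0.034 per hour) and for Zm00001eb226590 (-0.14 and then -0.10 per hour).

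The fits across all 21143 genes with enough counts, which all 6 passed, called a gene when the edgeR adjusted p was under 0.05 and the log2 fold change was beyond 1. In pSC12 against SC, 0 of the 6 genes were called lower, against 1.18% of all genes tested. With DESeq2 0 were called, against 557 of 21463 genes. A missing call does not show that a level was unchanged. In pSC18 against pSC12, 0 were called, against 0.00473% of all genes, and 0 with DESeq2, against 89 of 21463 genes. In pSC24 against pSC18, 2 were called, ZmMYB98 (-2.15, SE 0.35) and ZmHB81 (-1.31, SE 0.14), against 3.26% of all genes. In pSC18 against SC, 1 was called, ZmMYB98 (-1.38), against 1.60% of all genes, and leaving out any of the SC or pSC18 libraries ended that call.

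In pSC24 against pSC12, 4 were called, against 5.55% of all genes: ZmMYB98, ZmHB81, ZmHB44 and Zm00001eb226590, with ZmHB44 losing the call without any of the pSC12 libraries or without pSC24 replicate 2. In pSC24 against SC, 5 of the 6 were called lower, against 7.57% of all genes, and 0 higher, against 10.3% of all genes. ZmHB42 was the exception at -0.94, inside the fold limit by a narrow margin. ZmHB24 and Zm00001eb226590 were outside it at -1.35 and -1.46. These counts follow from how the genes were chosen and are given beside the background without a reading.

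By single libraries, all 3 pSC12 values lay below all 3 SC values in 5 of the 6 genes, against 16.0% of all genes tested, Zm00001eb226590 being the exception. All 3 pSC18 values lay below all 3 pSC12 values in 2, ZmMYB98 and ZmHB44, against 8.59% of all genes. The pSC24 values lay below the pSC18 values in 6 of 6, against 14.4%, and below the SC values in 6 of 6, against 20.6%.

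The comparisons of pSC12 with its neighbouring stages also cross a difference between libraries. In the study's own library statistics, the pSC12 libraries and pSC24 replicates 2 and 3 had a higher mapped share of reads than the other 7, so neither pSC12 against SC nor pSC18 against pSC12 can be told apart from the mapping set. With a mapping-set term, which rests on the pSC24 libraries alone, the pSC18 against pSC12 log2 fold change turned to 0.46 for ZmMYB98, 0.49 for ZmHB81 and 2.32 for ZmHB44. Within the lower set, the single pSC24 library against SC gave -4.23 for ZmMYB98, -2.18 for ZmHB81, -1.29 for ZmHB24, -0.98 for ZmHB42, -6.24 for ZmHB44 and -1.50 for Zm00001eb226590 (log2 of mean FPKM). Against pSC18, which is also in the lower set, that library gave -2.85, -1.70, -0.69, -0.39, -4.05 and -0.90 for the genes in that order. Within the higher set, the 2 pSC24 libraries against pSC12 gave -2.36, -1.19, -0.86, -0.50, -1.69 and -1.40 for the genes in that order. In these means pSC24 was lower in every gene within each set, the lower set resting on a single pSC24 library. The genes were chosen on this decline, so this is a description, and the part of the mapping set was not tested.

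Replicate 3 of pSC24 held more of 3 of the 6 mRNAs than replicates 1 and 2. Its level over the mean of the other two was 9.03-fold for ZmHB44, 3.11-fold for ZmMYB98 and 1.43-fold for ZmHB81, but 1.02-fold for ZmHB24, 0.937-fold for ZmHB42 and 0.877-fold for Zm00001eb226590. Set against the SC mean, the excess was 16.5% for ZmHB44, 10.8% for ZmMYB98, 10.8% for ZmHB81, 0.831% for ZmHB24, -3.38% for ZmHB42 and -4.72% for Zm00001eb226590. Of the chromosome 5 neighbours, ZmHB44 was thus higher in this library than in the other two pSC24 libraries, and the genes on either side of it were not.

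Among the 1682 genes called lower in pSC24 without replicate 3, that library was the highest of the 3 in 1143 (68.0%), against 38.1% of all genes tested. The choice on the other two libraries favours such a result, so the same was counted for replicate 1, which was highest in 43.2% of the 1531 genes called without it, and for replicate 2, in 26.8% of 1356. Over the genes of these lists with at least 5 FPKM in SC, the median excess of the library left out was 9.84% of the SC mean for replicate 3 (quartiles 2.74% and 19.1%, 1316 genes, 5 of the 6 among the list), 0.137% for replicate 1 and -2.91% for replicate 2. Over all genes tested at that level the excess of replicate 3 was 3.35% (quartiles -13.6% and 19.3%). The zein level was also highest in replicate 3, as given above, and its part in these values was not tested.

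Without replicate 3, the pSC24 level was 19.5-fold lower than SC for ZmMYB98, against 11.4-fold with it, and 48.7-fold lower for ZmHB44, against 13.3-fold with it. ZmHB81 was 3.94-fold lower without it and 3.45-fold lower with it, and the other 3 genes moved less (2.55 and 2.53 for ZmHB24, 1.87 and 1.91 for ZmHB42, 2.61 and 2.72 for Zm00001eb226590). The edgeR log2 fold change without replicate 3 was -5.60 (SE 0.33) for ZmHB44 and -4.29 (SE 0.16) for ZmMYB98, and ZmHB44 was then also called lower in pSC24 against pSC18 (-3.40).

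Ratios within a library, which no scaling between libraries touches, set the neighbours on chromosome 5 against each other. ZmHB44 over ZmHB42 was 0.909 to 1.06 in SC, 0.385 to 0.561 in pSC12, 0.252 to 0.415 at pSC18, and 0.0258, 0.0491 and 0.367 in the 3 pSC24 libraries. Zm00001eb226590 over ZmHB42 was 0.291 to 0.359 in SC, 0.307 to 0.577 at pSC12, 0.249 to 0.348 at pSC18 and 0.215 to 0.235 at pSC24. So ZmHB44 left its neighbour already in pSC12, without overlap with SC, whereas the ratio of the outer genes overlapped between SC and pSC18 and was wholly below the SC range only in pSC24. Zm00001eb226590 over ZmHB44, the convergent pair, was 8.69, 4.78 and 0.586 in pSC24 and 0.294 to 0.360 in SC.

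ZmMYB98 over ZmHB81 was 1.58 to 1.60 in SC, 1.11 to 1.22 at pSC12, 0.733 to 0.963 at pSC18, and 0.385, 0.273 and 0.70 in pSC24, with no overlap between neighbouring stages. ZmHB42 over ZmHB24 was 0.842 to 1.01 in pSC24 and 0.650 to 0.708 in SC. ZmMYB98 therefore lost ground to ZmHB81 also within pSC24 replicate 3.

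**Figure D3:**
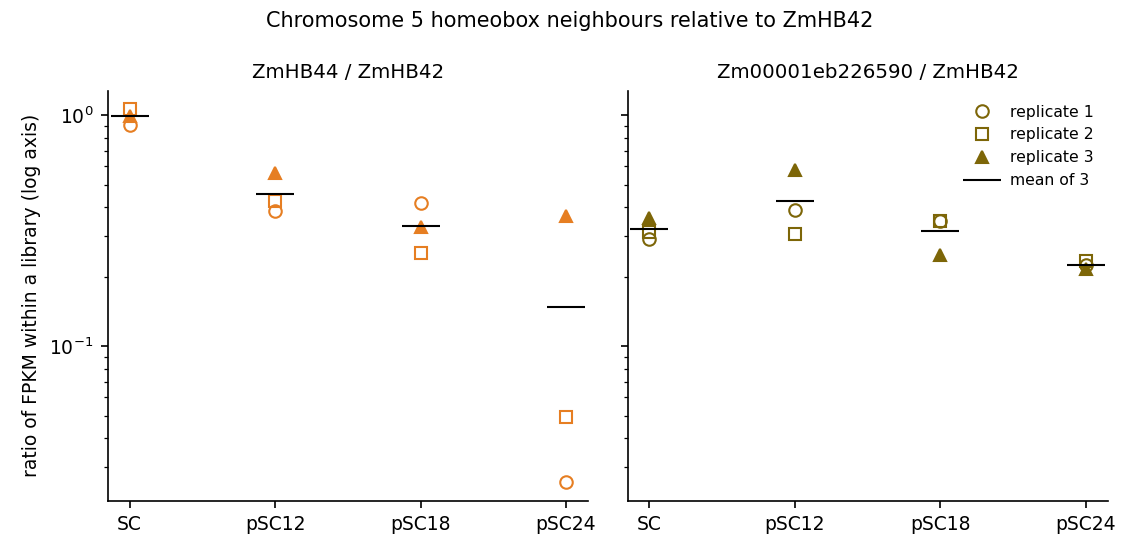
FPKM ratio within each library (log y axis) of ZmHB44 over ZmHB42 and of Zm00001eb226590 over ZmHB42 by stage (x axis), with a point for each of the 12 libraries. ZmHB44 over ZmHB42 is near 1.06 to 0.909 in SC and reaches 0.0258 in pSC24, and the other ratio stays between 0.215 and 0.577.

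Together the 6 genes took 0.359% ± 0.0163 of all counts in SC, 0.287% ± 0.00409 at pSC12, 0.229% ± 0.0226 at pSC18 and 0.114% ± 0.00874 at pSC24 (SD, n = 3). Without the 30 genes highest in SC, which took 34.0% of the counts in pSC24 and 37.3% in SC, the shares were 0.573%, 0.403%, 0.340% and 0.172%. Of the summed FPKM of the 1716 genes with a transcription factor domain label, the 6 held 49.3% ± 1.72 in SC and 40.7% ± 1.3 at pSC12. They held 35.6% ± 2.86 at pSC18 and 16.8% ± 1.81 at pSC24. The others of the 1716 summed to 4375 ± 221 FPKM in pSC24 and 3627 ± 59.1 FPKM in SC.

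The 5 homeobox genes held 86.7% ± 0.380 of the summed FPKM of all homeobox genes in SC, 79.5% ± 0.841 at pSC12, 76.9% ± 2.45 at pSC18 and 67.9% ± 0.364 at pSC24. ZmMYB98 held 69.4% ± 1.77 of the summed FPKM of all MYB genes in SC, 56.7% ± 2.30 in pSC12 and 48.4% ± 3.58 in pSC18. In pSC24 it held 9.81%, 10.6% and 25.2%, the highest again in replicate 3. The homeobox genes therefore stayed the larger share of their family, with the other homeobox genes summing to 374 ± 33.4 FPKM in pSC24 and 368 ± 21.9 FPKM in SC, and the other MYB genes to 513 ± 14.0 FPKM in pSC24 and 493 ± 7.67 FPKM in SC.

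The mixture of the 6 also shifted. ZmMYB98 made up 31.7% of their summed FPKM in SC, 27.0% at pSC12, 23.0% at pSC18, and 7.74%, 6.63% and 16.9% in the pSC24 libraries. ZmHB81, ZmHB24 and ZmHB42 together made up 51.6%, 59.7%, 66.6% and 80.1% over the same stages. ZmHB44 made up 18.5% of the summed FPKM of the 5 homeobox genes in SC and 9.46% and 6.86% in pSC12 and pSC18. In the pSC24 libraries it made up 0.828%, 1.60% and 9.42%, the highest in replicate 3.

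**Figure D4:**
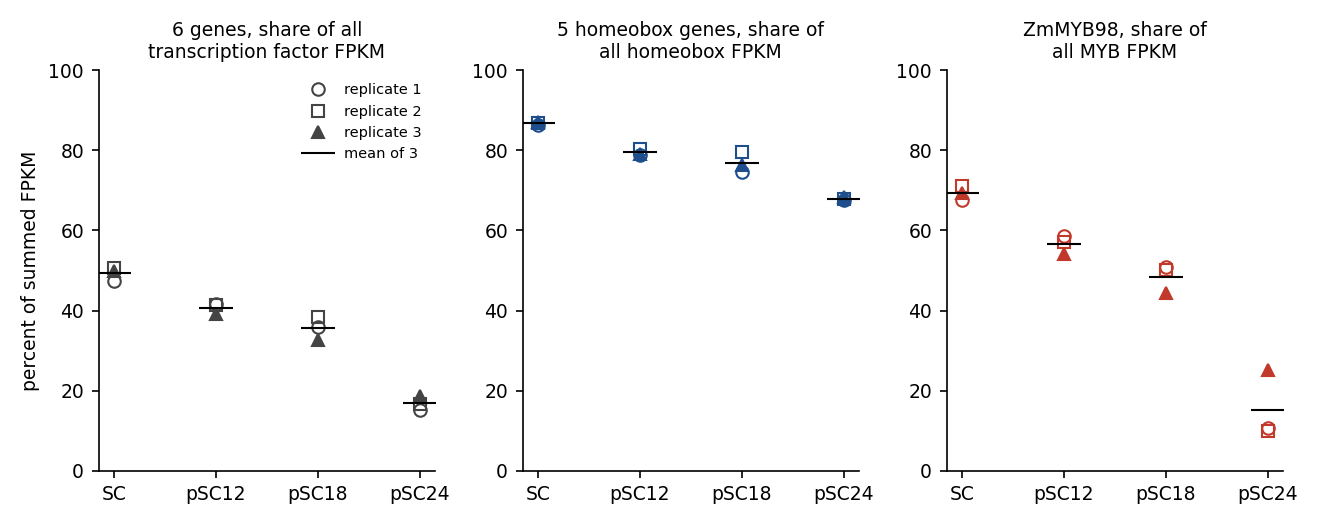
Percent of summed FPKM (y axis) held in each library by stage (x axis), with a point for each library. Shares are of the 6 genes among the 1716 genes with a transcription factor domain label, of the 5 homeobox genes among homeobox genes and of ZmMYB98 among MYB genes. The means in pSC24 are 16.8%, 67.9% and 15.2%, against 49.3%, 86.7% and 69.4% in SC.

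The lowest of the 5 homeobox genes in SC, Zm00001eb226590 with 144 FPKM, stood above the next of its family, a gene like rice ROC3 (Zm00001eb024680). That gene had means of 79.9 FPKM in SC, 119 FPKM in pSC12, 119 FPKM in pSC18 and 69.5 FPKM in pSC24. It was above the means of both ZmHB44 and Zm00001eb226590 in pSC18 and pSC24, although ZmHB44 reached 82.7 FPKM in pSC24 replicate 3. The other homeobox genes among the 10 highest in SC were 2 like SHH2 (Zm00001eb309600 with 39.2 FPKM and Zm00001eb382270 with 29.0 FPKM), a ROC2-like gene (Zm00001eb070050, 38.3 FPKM) and a ROC6-like gene (Zm00001eb319090, 18.1 FPKM). ROC genes are known in rice from the outer cell layer.

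Below ZmMYB98, the next MYB gene in SC was like Arabidopsis KUA1 (Zm00001eb172880), with 52.0 FPKM in pSC24 and 59.3 FPKM in SC. The rest of the 10 highest lay between 14.3 FPKM (Zm00001eb187450, RVE7-like) and 38.0 FPKM (Zm00001eb148320, MYB3R-2-like). ZmMYB98 stayed the highest MYB gene at every stage by its mean, and its pSC24 replicates 1 and 2, at 59.7 and 55.2 FPKM, were close to the pSC24 mean of the KUA1-like gene.

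The study tested promoters of 18 other genes together with ZmMYB98 in a luciferase reporter assay, and these genes were picked there for their high level in SC, so their falls are not independent evidence. It reported that ZmMYB98 activated nearly all of the assayed promoters, its own among them. The 18 genes were not split by that outcome here. In pSC24 against SC, 4 of the 18 were called lower and 0 higher, with a median log2 fold change of -0.31, against 7.57% called lower, 10.3% called higher and a median of 0.05 over all genes tested. The 18 kept a median of 58.0% of their SC mean in pSC12, 73.2% at pSC18 and 81.6% at pSC24, where ZmMYB98 kept 53.7%, 38.4% and 8.74%. Of the 18, 4 kept less than ZmMYB98 in pSC12, and 0 did in pSC18 or pSC24. The nearest in pSC24 was ZmSC57, whose difference from ZmMYB98 was not tested.

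The 4 called were ZmSC57 (-3.06, SE 0.33), ZmSC8 (-2.46, SE 0.44), ZmSC21 (-1.67, SE 0.14) and ZmSC46 (-1.28, SE 0.14), with edgeR adjusted p between 5.96e-06 and 0.00123. ZmSC57 (Zm00001eb017240) had 110, 68.2 and 228 FPKM in pSC24, against a mean of 1119 FPKM in SC, and 12.1% was kept. ZmSC8 (Zm00001eb211380) had 1578, 4174 and 9402 FPKM in pSC24, against a mean of 27531 FPKM in SC. The other 14 lay between -0.79 (ZmSC34) and -0.05 (ZmSC1), and ZmES4 was at 10922 FPKM in pSC24 and 12036 FPKM in SC. In 17 of the 18, pSC24 replicate 3 was the highest pSC24 library, by a median excess of 15.3% of the SC mean, against 38.1% of all genes tested and a median excess of 3.35%.

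**Figure D5:**
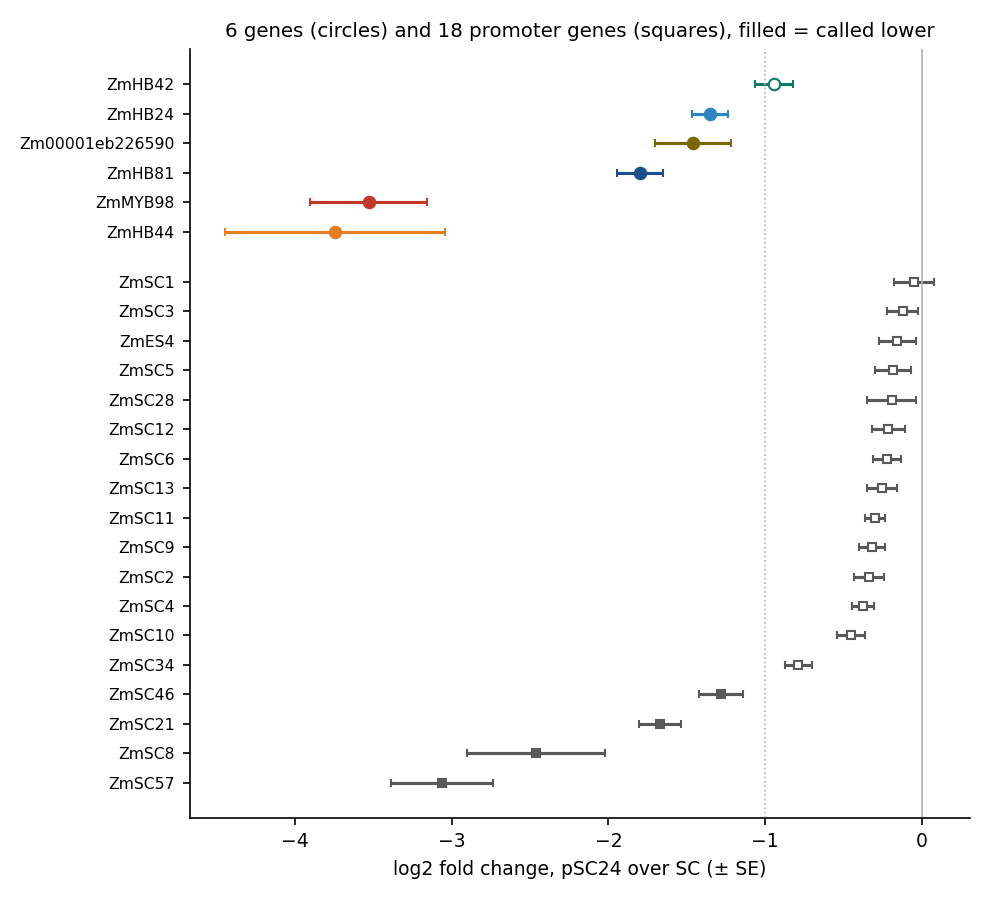
Log2 fold change of pSC24 over SC (x axis, edgeR, bars for the SE) of the 6 genes (circles) and of the 18 genes whose promoters were assayed with ZmMYB98 (squares), with filled symbols for genes called lower and a dotted line at -1. ZmHB44 and ZmMYB98 lie farthest left at -3.75 and -3.53, and 14 of the 18 squares lie between -0.79 and -0.05.

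The other genes of the homeobox and MYB families were counted in pSC24 against SC beside the 7.57% lower and 10.3% higher over all genes tested. Of 76 other HD-ZIP genes, 25 passed the filter. At an unadjusted p under 0.05 by edgeR, 4 of the 25 were lower and 5 higher, and the share of all genes at that threshold was not computed. By the call, 0 were lower and 2 higher in pSC24 against SC, and 1 was called lower with DESeq2. The median log2 fold change of 0.77 over the 25 was 0.22 without pSC24 replicate 3, 0.44 without SC replicate 1 and 0 with the mapping-set term. Of the 76, 11 had at least 1 FPKM in SC. The 2 were a HOX9-like gene (Zm00001eb045630), with 10.6 FPKM in pSC24 and 2.10 FPKM in SC, and a HOX19-like gene (Zm00001eb009550), with 5.47 FPKM in pSC24 and 0.058 FPKM in SC.

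Of 114 other homeobox genes, 41 were tested, 2 (4.88%) were called lower and 7 (17.1%) higher, with a median of 0.16 that was 0.39 without SC replicate 2 and 0.27 without pSC24 replicate 3. The lower ones were a BLH11-like gene (Zm00001eb051910), with 0.020 FPKM in pSC24 and 7.65 FPKM in SC, and an SHH2-like gene (Zm00001eb310530), with 3.83 FPKM in pSC24 and 17.8 FPKM in SC. The 3 with the largest rises were a BEL1-like gene (Zm00001eb001770), with 1.77 FPKM in pSC24 and 0.012 FPKM in SC, a WOX5-like gene (Zm00001eb148390), with 2.0 FPKM in pSC24 and 0.033 FPKM in SC, and a KNOTTED1-like gene (Zm00001eb130180), with 27.5 FPKM in pSC24 and 5.10 FPKM in SC. WOX5 and the KNOTTED1 class are known from stem cell regions of the root and shoot.

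Of 282 other MYB genes, 89 were tested, 7 (7.87%) were called lower and 8 (8.99%) higher, shares near those of all genes, with a median of 0.04. Those with the largest falls were RVE8-like (Zm00001eb123770), with 1.07 FPKM in pSC24 and 7.81 FPKM in SC, MYB44-like (Zm00001eb286230), with 0.189 FPKM in pSC24 and 1.09 FPKM in SC, and KUA1-like (Zm00001eb416380), with 1.0 FPKM in pSC24 and 5.08 FPKM in SC. The largest rises were in genes like DIV (Zm00001eb288890), with 10.5 FPKM in pSC24 and 0.021 FPKM in SC, MYB93 (Zm00001eb072260), with 16.7 FPKM in pSC24 and 0.072 FPKM in SC, and MYB94 (Zm00001eb328280), with 4.71 FPKM in pSC24 and 0.126 FPKM in SC. At these levels none of them came near the SC level of ZmMYB98.

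Of the 40 annotated genes up to 5 places away on each side of the 6 loci, 16 were tested, and 1 (6.25%) was called lower and 5 (31.3%) higher in pSC24 against SC, against 7.57% and 10.3% of all genes, with a median log2 fold change of 0.32. Around the chromosome 5 group, an IMP4-like gene (Zm00001eb226560) next to ZmHB42 had 35.7 FPKM in pSC24 and 27.7 FPKM in SC, an iron superoxide dismutase-like gene (Zm00001eb226600) next to Zm00001eb226590 had 5.19 FPKM in pSC24 and 4.43 FPKM in SC, and a BRE1-like gene (Zm00001eb226640) had 18.5 FPKM in pSC24 and 17.1 FPKM in SC. The remaining 7 genes around that group were at or near 0, and none of the 10 was called.

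Elsewhere, the gene called lower was CIA2-like (Zm00001eb208040, near ZmHB24), with 0.078 FPKM in pSC24 and 1.36 FPKM in SC. Among those called higher were an EDR2L-like gene (Zm00001eb273090) near ZmHB81, with 101 FPKM in pSC24 and 3.80 FPKM in SC, and 2 genes near ZmHB24, Zm00001eb207990 with 22.7 FPKM in pSC24 and 1.10 FPKM in SC, and Zm00001eb207970 with 32.5 FPKM in pSC24 and 4.68 FPKM in SC. The loci of ZmHB81 and ZmHB24 thus held genes that rose beside the genes that fell.

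The genes most like each of the 6 were ranked by Pearson's r of log2(FPKM + 1) over the 12 libraries, among 9665 other genes with at least 5 FPKM in SC. These values are a description, and the points share stage, mapping set and library. ZmMYB98 was most like Zm00001eb293570 (r = 0.993, no description), an IQD2-like gene (Zm00001eb148890, 0.991), a gene like the kinase STY46 (Zm00001eb104040, 0.991), a UBA2B-like gene (Zm00001eb069130, 0.988) and Zm00001eb250680 (0.988). ZmHB81 was most like the same STY46-like gene (0.988), a PBL16-like gene (Zm00001eb004440, 0.987) and an ELMO domain gene (Zm00001eb075190, 0.987).

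For ZmHB44, the nearest were an aquaporin like TIP5-1 (Zm00001eb429760, 0.984), the UBA2B-like gene named for ZmMYB98 (0.983) and Zm00001eb078580 (0.981). ZmHB24 was nearest to Zm00001eb359750 (0.980), a TCEA1-like gene (Zm00001eb100960, 0.976) and the RVE8-like MYB gene Zm00001eb123770 (0.975). ZmHB42 was nearest to Zm00001eb212770 (0.984), Zm00001eb148920 (0.970) and a BTB/POZ gene (Zm00001eb326040, 0.970). For Zm00001eb226590 the values were lower, with an ABC1K3-like gene (Zm00001eb285080, 0.953), Zm00001eb100440 (0.952) and Zm00001eb057360 (0.947).

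Between the 6 genes themselves, ZmMYB98 and ZmHB81 had r = 0.979 and ZmMYB98 and ZmHB44 had r = 0.966, and these homeobox genes were the 25th and 87th most like ZmMYB98 of all genes ranked. ZmHB24 and ZmHB42 had r = 0.958, and ZmHB24 was the 7th most like ZmHB42. The convergent neighbours ZmHB44 and Zm00001eb226590 had the lowest value of all pairs (r = 0.773). The order of likeness depends on the measure: by Spearman's rho, 0 of the 5 genes named for ZmMYB98 were among its nearest 5, and without pSC24 replicate 3, 3 of the 5 were. Of the 3 named for each homeobox gene, those among the nearest 3 without that library numbered 2 for ZmHB81, 0 for ZmHB24, 1 for ZmHB42, 0 for ZmHB44 and 1 for Zm00001eb226590.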

How the data were processed

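The deposited tables of counts and FPKM were used, both covering 12 libraries of B73 maize synergid cells. Per the submitters' processing notes and the study's methods, the authors trimmed reads with cutadapt 1.15, mapped them with HISAT2 2.0.5 to AGPv5 and counted them per gene with featureCounts 1.5.0-p3, and they deposited raw counts. The strand and multi-mapping settings are not given in the sources used here. The authors also deposited FPKM values, which equalled counts over gene length and a library size adjusted by size factors (largest relative deviation 2.08e-14). Of 45246 lines, 43458 carry a gene identifier, and the others are unnamed loci of the table.

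Stages were compared in 1 edgeR 4.0.16 quasi-likelihood fit (R 4.3.3, limma 3.58.1) on counts, with TMM scaling, filterByExpr and Benjamini-Hochberg adjustment over 21143 genes, tested on simulated data. A call needed an adjusted p under 0.05 and an absolute log2 fold change above 1. DESeq2 1.42.0 was an alternative, and the other alternatives changed the scaling, the filter, the threshold, the libraries entering the fit, the replicate block, the mapping set, the FPKM unit and the measure of likeness. FPKM means, shares and ratios were computed in Python 3.11.15 (pandas 2.3.3), with a pseudocount of 1 for likeness only. Counts of this depth left a floor of 3 counts far below every value of the 6 genes.

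The genes, the lists and the questions were chosen with earlier results of these data known. Named were the 6 genes, the 5 (ZmMYB98) or 3 genes most like each, the called genes of each list with the 3 largest falls and rises from SC to pSC24, the homeobox and MYB genes among the 10 highest in SC, and the genes flanking the chromosome 5 group. The 4 lists other than the assayed promoters were taken from the protein domains and positions in the table. Marker lists came from the deposited descriptions. No sequence is printed.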

Additional observations from a re-analysis of the deposited data

How the results depend on the processing

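The 6 genes kept the direction of their pSC24 against SC change in every alternative run. The numbers called lower differed as follows, with the number lower among all genes in brackets, of 21143 tested unless given. In pSC12 against SC, with 0 of 6 called (249), 1 was called on the 6 libraries alone (373 of 18984) and 1 with no fold limit (558). In pSC24 against pSC18, with 2 called (689), glmTreat gave 1 (78), the mapping-set term 3 (372) and no fold limit 4 (1511). In pSC18 against SC, with 1 called, DESeq2, no low-count filter, the mapping-set term, the replicate block with the mapping-set term and the 6 libraries alone each gave 2, no fold limit gave 3 and glmTreat 0. In pSC24 against pSC12, with 4 called (1174), glmTreat gave 2 (271), the 6 libraries alone 3 (913 of 19937) and no fold limit 6 (2226). In pSC24 against SC, with 5 called, upper-quartile scaling and no fold limit gave 6, and glmTreat and the replicate block joined to the mapping-set term gave 4. Leaving out each library in turn gave 0 to 1 for pSC12 against SC, 0 to 0 for pSC18 against pSC12, 2 to 3 for pSC24 against pSC18, 0 to 2 for pSC18 against SC, 3 to 4 for pSC24 against pSC12 and 5 to 6 for pSC24 against SC. Of the runs that left out a library, ZmHB44 passed the threshold in pSC12 against SC and pSC24 against pSC18 only without pSC24 replicate 3, and it also passed on the 6 libraries alone in pSC12 against SC and with the mapping-set term in pSC24 against pSC18. It passed it in pSC18 against SC without any of the pSC24 libraries, and lost it in pSC24 against pSC12 without any of the pSC12 libraries or pSC24 replicate 2. Zm00001eb226590 was called in pSC24 against pSC18 without pSC18 replicate 3, and ZmHB42 in pSC24 against SC without pSC24 replicate 2 (-1.0001) and with upper-quartile scaling (-1.01). Zm00001eb226590 lost its pSC24 against SC call under glmTreat and in the fit that joins the replicate block to the mapping-set term.

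For pSC24 against SC, the lists moved as follows. With no fold limit, 10 assayed promoters, 1 HD-ZIP gene and 2 flanking genes were lower, and glmTreat gave 4 higher homeobox genes, 1 lower and 4 higher MYB genes and 3 higher flanking genes. DESeq2 and the mapping-set term each gave 1 lower HD-ZIP gene. The mapping-set term gave 3 higher homeobox, 4 lower and 4 higher MYB and 3 higher flanking genes, and with the replicate block as well there were 1 higher HD-ZIP gene, 1 lower and 3 higher homeobox genes, 3 lower and 2 higher MYB genes and 3 higher flanking genes. The 6 libraries alone gave 14 higher MYB genes. Leaving out a library gave 4 to 4 lower promoters, 0 to 2 lower and 2 to 2 higher HD-ZIP genes, 2 to 3 lower and 4 to 7 higher homeobox genes (4 without SC replicate 2 or 3), 3 to 8 lower and 6 to 10 higher MYB genes (3 lower without SC replicate 2), and 1 to 1 lower and 4 to 5 higher flanking genes. HD-ZIP genes called lower numbered 2 without pSC24 replicate 1.

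Over all genes in pSC24 against SC, 1600 were lower and 2170 higher, against 1118 and 2911 on library totals (a median shift of 0.28 on the log2 scale), 930 and 975 with the replicate block and mapping-set term, 1177 and 1351 with the mapping-set term alone, 563 and 950 under glmTreat and 2728 and 3042 with no fold limit. The same replicate number gave correlations of -0.06 to 0.09 over 18 pairs of libraries, 0 of them above 0.1. Such correlations cannot show whether libraries of the same number shared plants or a preparation, so pairing stays unknown. The replicate block alone left the calls among the 6 at 0, 0, 2, 1, 4 and 5. It left all genes at 1574 lower and 2056 higher. Of the values compared across alternatives, 345 were rated the same and 59 moved. The mapping-set term rests on the 3 pSC24 libraries alone, and with it the pSC18 against pSC12 change turned to 0.46 for ZmMYB98, 0.49 for ZmHB81 and 2.32 for ZmHB44 (0.48, 0.45 and 2.0 with the replicate block). The pSC12 against SC change of Zm00001eb226590 turned to 0.28 on library totals, 0.14 with the replicate block and mapping-set term, 0.01 on the 6 libraries alone and up to 0.16 without single SC or pSC12 libraries (SC replicates 2 and 3, pSC12 replicates 1 and 2). Where no construction of an alternative is given here, the cause was not tested.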
